A study of Mus musculus with 10 samples.

Results

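Reclaiming filtered bicarbonate and making ammonia are the main ways in which the proximal tubule of the kidney defends the pH of blood. Protons leave the tubule cell through the apical sodium-proton exchanger, carbonic anhydrases at the membrane and in the cytosol interconvert bicarbonate and carbon dioxide, and the recovered bicarbonate crosses the basolateral membrane with sodium. Glutamine taken up from blood is broken down in mitochondria to ammonium, and the carbon skeleton yields new bicarbonate. In these data 7 genes of that system were followed, chosen by symbol with earlier results of these data known. They are Glud1 and Slc38a3 of the ammonia pathway, Slc4a4 and Slc9a3 of bicarbonate and proton transport, and the carbonic anhydrase genes Car2, Car4 and Car14. Each of the 7 matched 1 row of the 43629 gene rows, and 5 of them were among the 10055 genes with enough reads to be tested.

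The data are counts of reads per gene in 10 kidney libraries of male UM-HET3 mice aged 4 months. UM-HET3 is a genetically mixed stock, so that each animal differs from the others in genotype. The 6 control mice ate Purina 5LG6 chow, and the 4 treated mice ate the same chow with rilmenidine, a drug given against high blood pressure, at 10 ppm for 1 month. The comparison asks which kidney transcripts differed with the drug. The libraries are described as biological replicates, 1 for each animal, and p-values set a group difference against the spread between these samples. Total counts were 863605 to 2559118 in control and 1813465 to 3232063 in rilmenidine libraries, and mean log2 totals differed by 0.71 (two-sided exact permutation test over 210 splits, p = 0.0524). That p was 0.0159 without control 6, 0.0476 without rilmenidine 1 and 0.0476 without rilmenidine 2. Without any other single kidney it stayed above 0.05, and it was 0.155 without rilmenidine 3 and 0.155 without rilmenidine 4. Malat1, a nuclear RNA, stood at 398 normalized CPM in control 2 and 284 in control 6, at 1182 to 2100 in the other controls, and at 306 to 393 with rilmenidine. Normalized CPM here is the count of a gene relative to the library total, with totals scaled by the RLE method of edgeR. The labels name kidney although their extraction text speaks of liver. The proximal phosphate transporter gene Slc34a1 was at 5241 to 7010 normalized CPM in controls and 5082 to 6583 with rilmenidine, whereas the liver gene Alb had 0 to 20 counts in a library. The other liver markers read here were divided. Fgb had at most 10 counts, Apoa1 at most 4 and Serpina1a at most 58. Apoh had means of 46.3 normalized CPM in control and 65.6 in rilmenidine kidneys, and Cyp2e1, also a gene of the kidney, 2191 and 2106.

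The libraries were made by a protocol that reads the 3′ end of polyadenylated RNA. Reads of such a protocol come from near the end of a transcript, but where the reads of each gene lay was not examined. The last 30 bases of the longest-reaching coding transcript of all members are shown for that reason, 5′ to 3′ as DNA letters from GENCODE M21 (GRCm38), with a polyadenylation signal (AATAAA or ATTAAA) in capitals.
Glud1, chr14:34345236-34345265, plus strand: agaAATAAAagcatggaagttttttcagat
Slc38a3, chr9:107650634-107650663, minus strand: tttattagtAATAAAtacctctatgaataa
Slc4a4, chr5:89239624-89239653, plus strand: tacttaaAATAAAgtaactttatgcattta
Slc9a3, chr13:74169413-74169442, plus strand: gcttatgtctATTAAAaacactttgaggca
Car2, chr3:14900741-14900770, plus strand: atatattctctAATAAAattgagaactcta
Car4, chr11:84966015-84966044, plus strand: aAATAAAatatggatatgtttttagaaaaa
Car14, chr3:95897768-95897797, minus strand: tgtttggaaATTAAAagtttttgatcttaa

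All 7 ends held a signal on the transcript strand, AATAAA in Glud1, Slc38a3, Slc4a4, Car2 and Car4 and ATTAAA in Slc9a3 and Car14. Among 21426 protein-coding genes with such a window, 51.5% held AATAAA, 13.3% held ATTAAA and 63.2% held either. The 4 members with the highest counts, described next, all held AATAAA, and of the 3 with low counts Slc38a3 held AATAAA and the other two ATTAAA. Whether the signal bears on the counts was not tested. The annotation shows what lies next to each end. Exoc3, on the opposite strand, ends 45 bases beyond the end of Slc9a3, while beyond the ends of Glud1, Slc38a3, Slc4a4, Car2 and Car4 the next gene is at least 6615 bases away. The end of Car14 lies inside another gene. The last exon of Car14, 445 bases long, lies wholly within exons of Aph1a on the other strand (chromosome 3, 95897768 to 95898288), so that the Car14 count is uncertain where the strand setting of the counting is not known.

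The members fell into an abundant and a scarce set, in the same way in both groups. In control kidneys Slc4a4 had 852 ± 145 normalized CPM (SD, n = 6), Glud1 636 ± 59.9, Car2 452 ± 103 and Car4 238 ± 32.4. Car14 had 6.30 ± 2.41, Slc38a3 3.40 ± 2.52 and Slc9a3 0.383 ± 0.463 (SD, n = 6 each). Slc4a4 stood above Glud1, Glud1 above Car2, and Car2 above Car4 in 10 of 10 libraries. Car14 and Slc38a3, neighbours in this order, were not separated: Slc38a3 was the higher in 3 of 10. These are counts of transcript ends. Per kb of annotated exon the control means were 187 for Car2, 151 for Glud1, 121 for Car4, 78.8 for Slc4a4, 2.48 for Car14, 0.643 for Slc38a3 and 0.0696 for Slc9a3. A count of ends need not grow with exon length, so this scale is given as a description only. Among the control means the order of the 4 abundant genes depended on the scale and that of the 3 scarce ones did not. With rilmenidine the mean of Slc38a3 was above that of Car14 in normalized CPM (6.90 and 5.63) and below it per kb (1.31 and 2.22). Together the 7 genes took 0.197% to 0.241% of all counts in control and 0.198% to 0.212% in rilmenidine libraries.

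**Figure D1:**
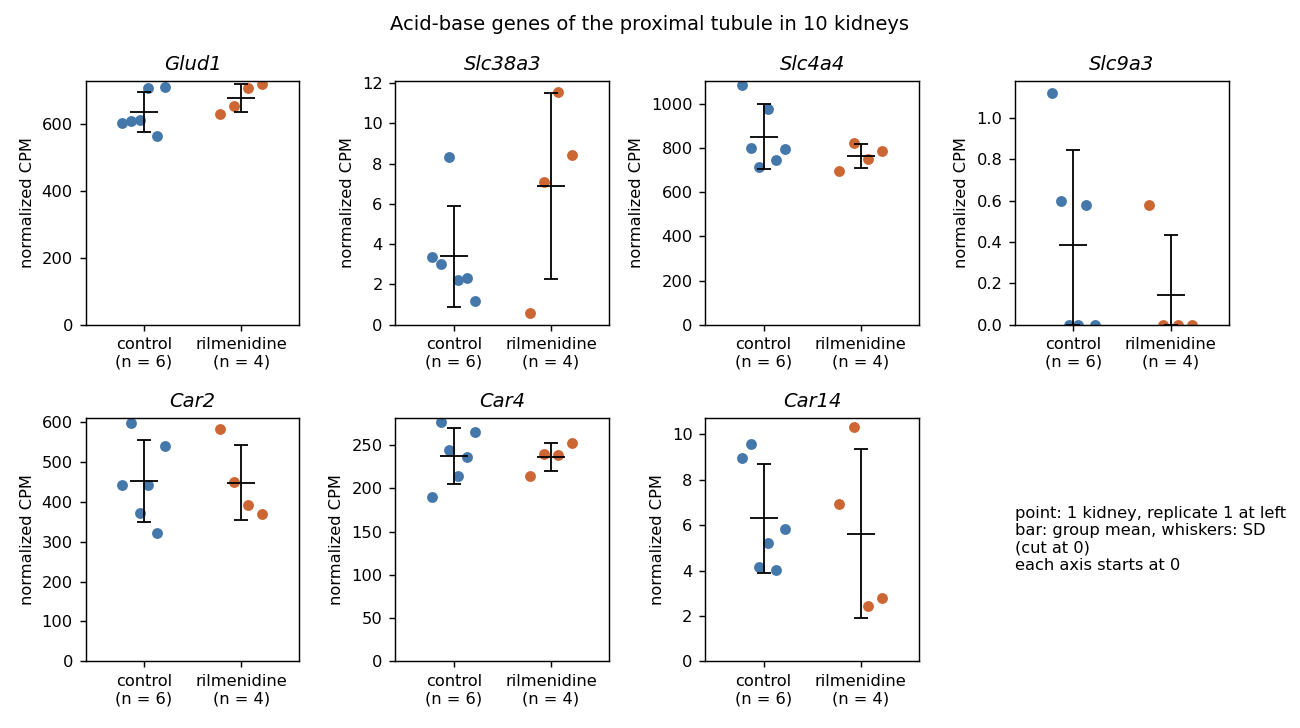
Normalized CPM of the 7 genes (vertical axes, each from 0) in 6 control and 4 rilmenidine kidneys, 1 point a kidney, with the group mean and SD. The groups overlap in every panel, and Slc9a3 stays near 0 in all 10 kidneys.

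No difference with rilmenidine was called for any of the 5 tested genes. Quasi-likelihood tests in edgeR were adjusted by Benjamini-Hochberg over 10055 genes (the adjusted p given from here on). They called 0 of 5 under 0.05, where the background was 0.0% of all genes. The edgeR likelihood ratio test also called 0 of the 5. DESeq2 called 0 as well, but it gave no adjusted p-value for Car14 (unadjusted p = 0.654 in DESeq2). Before adjustment 0 of 5 were under 0.05, against 10.6% of all genes tested (4.43% higher and 6.13% lower with rilmenidine). The values of the 2 groups overlapped for each of the 5, and 1.67% of all genes had groups that did not. The median log2 fold change was −0.015 over the 5 and 0.0020 over all genes. A kidney library holds many cell types, and fewer cells of a type cannot be told apart from less RNA per cell.

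Glud1 (ENSMUSG00000021794; chromosome 14, 34310727 to 34345265) encodes the mitochondrial glutamate dehydrogenase, which releases ammonium from glutamate. Control kidneys had 566 to 712 normalized CPM with a median of 611, and rilmenidine kidneys 1 to 4 had 631, 654, 710 and 720. The treated values lay in and just above the upper part of the control range. The log2 fold change was 0.095 (standard error 0.12, 95% interval −0.16 to 0.34, adjusted p = 0.833 in edgeR). On the linear scale the interval runs from 0.898-fold to 1.27-fold. Glud1 was the steadiest of the members among controls, with a coefficient of variation of 9.42%, where counting alone would give about 3.15%.

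Slc38a3 (ENSMUSG00000010064; chromosome 9, 107650634 to 107669530) encodes the system N transporter SNAT3, which brings glutamine into the tubule cell across the basolateral membrane. The counts were 3, 5, 10, 3, 4 and 3 in controls 1 to 6 and 1, 13, 33 and 27 in rilmenidine kidneys 1 to 4. Of these libraries 4 had at least 6 reads where the filter needed 7, and the gene was not tested with the others. In normalized CPM the controls ran from 1.17 to 8.30 with a median of 2.65, and the treated kidneys had 0.580, 7.06, 11.5 and 8.43. Rilmenidine kidneys 2 to 4 were at the upper end, control 3 was among them, and rilmenidine 1 had the lowest value of all 10. The means were 3.40 ± 2.52 (SD, n = 6) and 6.90 ± 4.61 (SD, n = 4), a difference of 3.51 with p = 0.152 in a two-sided exact permutation test, which did not pass 0.05. Without rilmenidine 1 the difference was 5.62 (exact permutation p = 0.0238) and without rilmenidine 3 it was 1.96 (p = 0.429). On the scale of log2(CPM + 1) the difference in means over all 10 kidneys was 0.66 (exact permutation p = 0.314). In an edgeR fit that kept all genes not at 0 throughout, the log2 fold change was 1.15 (unadjusted p = 0.0171, adjusted p = 0.534, with 0.194 to 0.730 when single kidneys were left out), and 7.38% of 27565 genes reached an unadjusted p-value under 0.05 there, with 0.874% called after adjustment. The DESeq2 test of the same genes gave an unadjusted p-value of 0.119, and the edgeR likelihood ratio test 0.0521. In the quasi-likelihood fit the unadjusted p-value was 0.0928 with log2 library size as a covariate. It was 0.150 with a block by replicate number over replicates 1 to 4. With TMM scaling it was 0.0146, and with log2 Malat1 as a covariate 0.0198. In the 7 libraries (5 control and 2 rilmenidine) whose reads on smell and pheromone receptor genes (olfactory, vomeronasal) reached 10 CPM, a split chosen after seeing the data, the log2 fold change was 0.011. That split keeps rilmenidine 1 and 2 and drops rilmenidine 3 and 4, the 2 highest treated values, so it does not show whether the receptor reads bear on the difference. Those receptor reads are not recorded as a batch, and the remaining 3 libraries, control 6 and rilmenidine 3 and 4, hold too few controls for a value. Pooled within groups, there were 28 counts in controls or 2.99 CPM (95% exact Poisson interval 1.98 to 4.32) and 74 with rilmenidine or 7.39 CPM (5.80 to 9.28), intervals that cover counting error and not the spread between mice. Slc38a3 is also a gene of liver cells, and 6 liver markers were read beside it. Serpina1a, which shares sequence with near-identical neighbours and was not tested, also had a higher mean with rilmenidine, at 0 to 2.49 normalized CPM in controls and 1.16 to 20.3 with rilmenidine (means 1.44 ± 1.09, SD, n = 6, and 9.78 ± 8.02, SD, n = 4). Apoh had a log2 fold change of 0.52 (unadjusted p = 0.0248, adjusted p = 0.390 in edgeR), and it was 1 of the 3 that could be tested. The others tested were Alb, at 0.27 (unadjusted p = 0.591 in edgeR), and Cyp2e1, at −0.057 (unadjusted p = 0.742 in edgeR). The control mean of Apoh was 46.3 normalized CPM and that of Alb 4.45. Alb had at most 20 counts, Fgb at most 10 and Apoa1 at most 4. The summed list ran from 1705 to 2890 normalized CPM in control and 1631 to 2692 in rilmenidine kidneys, of which Cyp2e1 alone, also a gene of the kidney, had means of 2191 and 2106. Their part in the Slc38a3 counts was not tested.

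**Figure D2:**
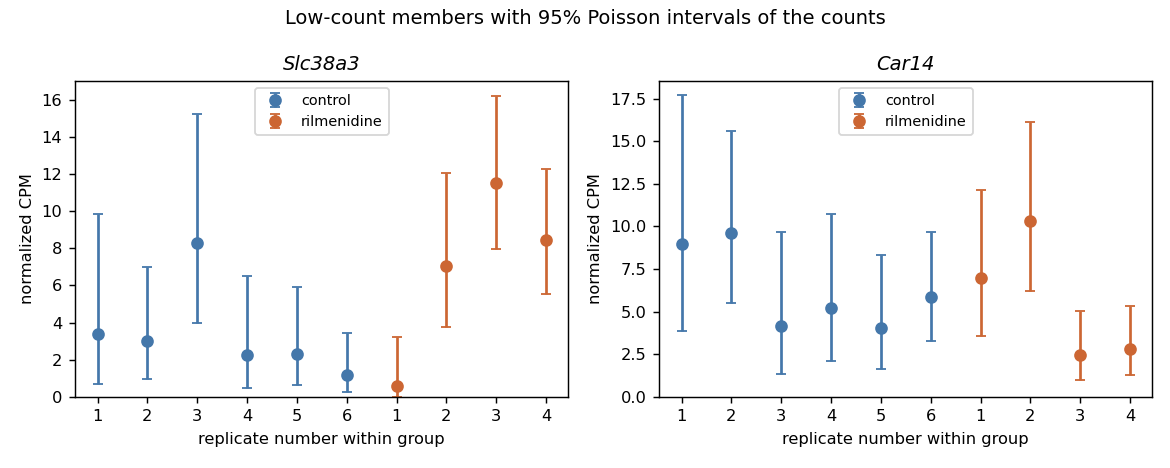
Normalized CPM of Slc38a3 and Car14 in each kidney (horizontal axis: replicate number within its group) with 95% exact Poisson intervals of the counts. The Slc38a3 values of rilmenidine kidneys 2 to 4 and of control 3 lie above the others, and the 2 lowest Car14 values are those of rilmenidine kidneys 3 and 4.

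Slc4a4 (ENSMUSG00000060961; chromosome 5, 88886818 to 89239653) encodes the sodium-bicarbonate cotransporter NBCe1, the basolateral exit of reclaimed bicarbonate. Its control levels ran from 715 to 1084 normalized CPM with a median of 797, and rilmenidine kidneys 1 to 4 had 698, 824, 751 and 786. Controls 1 and 4, at 1084 and 976, were above every treated kidney, and the other 4 controls lay among them. The log2 fold change was −0.16 (standard error 0.14, 95% interval −0.45 to 0.14, adjusted p = 0.743 in edgeR), or 0.731-fold to 1.10-fold. It was −0.076 without control 1. The spread was 17.1% of the mean in controls and 7.02% with rilmenidine, where counting alone would give 2.77% and 2.33%. Counts per gene do not separate the kidney form of NBCe1 from the form made at the other start site.

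Slc9a3 (ENSMUSG00000036123; chromosome 13, 74121457 to 74169442) encodes NHE3, the apical sodium-proton exchanger through which most proton secretion of the proximal tubule passes. It was all but absent from the counts: 1 count each in controls 1, 2 and 5 and in rilmenidine 1, and 0 in the other 6 libraries, which allows up to 0.928 to 2.53 CPM in those libraries. The pooled 95% exact Poisson upper limit was 0.935 CPM in controls and 0.556 with rilmenidine. Both groups were at or under 3 counts, so no fold change is given. Another sodium-proton exchanger gene, Slc9a2, was at 28.2 to 58.9 normalized CPM in the control libraries, and Slc9a3r1, the gene of the scaffold NHERF1 that holds NHE3 at the brush border, was at 112 to 165. Slc5a2, the glucose transporter of the early proximal tubule, was low at 1.74 to 11.2, but with 3 to 20 counts it passed the filter. The other proximal tubule markers read here were higher, with control means from 57.5 normalized CPM (Cubn) to 6002 (Slc34a1). The low count is a property of these tables, and the NHE3 protein was not measured.

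Car2 (ENSMUSG00000027562; chromosome 3, 14886273 to 14900770) encodes cytosolic carbonic anhydrase II, found in proximal cells, in intercalated cells of the collecting duct and in red blood cells. Control kidneys had 320 to 596 normalized CPM with a median of 442, and rilmenidine kidneys 1 to 4 had 581, 449, 392 and 370. Control 2, rilmenidine 1 and control 6 held the highest values, so both groups spanned nearly the same range. The log2 fold change was −0.015 (standard error 0.18, 95% interval −0.39 to 0.35, adjusted p = 0.986 in edgeR). The sign was not stable: the log2 fold change was 0.079 without control 2, 0.043 without control 6, 0.043 without rilmenidine 3 and 0.067 without rilmenidine 4, and 0.25 within the 7 libraries with receptor gene reads. With log2 Malat1 as a covariate it was −0.34 (unadjusted p-value 0.0781, adjusted 1.00). The 8 intercalated cell markers summed to 351 to 518 normalized CPM in control and 335 to 547 in rilmenidine kidneys, with 0 of 7 tested at an unadjusted p-value under 0.05. The 6 red blood cell markers summed to 980 to 8803 and 2874 to 4117, again with 0 of 4, and Alas2 had at most 2 counts. The highest red cell sum was that of control 2. Their part in the spread of Car2 was not tested.

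Car4 (ENSMUSG00000000805; chromosome 11, 84957786 to 84966044) encodes the carbonic anhydrase anchored to the outer face of the brush border and the basolateral membrane. The controls ran from 190 to 277 normalized CPM with a median of 241, and rilmenidine kidneys 1 to 4 had 214, 240, 239 and 253. All treated values fell inside the control range. The log2 fold change was −0.012 (standard error 0.13, 95% interval −0.28 to 0.25, adjusted p = 0.984 in edgeR), which on the linear scale is 0.825-fold to 1.19-fold. It was above 0 without control 2 (0.035), without control 6 (0.022) and without rilmenidine 1 (0.032).

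Car14 (ENSMUSG00000038526; chromosome 3, 95897768 to 95904691) encodes a carbonic anhydrase that spans the membrane of proximal and thin limb cells. Its counts were 5 to 16 in controls and 12, 19, 7 and 9 in rilmenidine kidneys 1 to 4. Normalized, the controls ran from 4.05 to 9.59 CPM with a median of 5.52, and the treated kidneys had 6.96, 10.3, 2.45 and 2.81. The highest and the 2 lowest values of all 10 kidneys were treated ones. The log2 fold change was −0.23 (standard error 0.43, 95% interval −1.15 to 0.69, adjusted p = 0.912 in edgeR), so that 0.452-fold and 1.61-fold are both within the interval. Its sign turned without rilmenidine 3 (0.042) and without rilmenidine 4 (0.023), and without rilmenidine 2 it was −0.71. Counting error alone would give a coefficient of variation of about 32.2% in controls, close to the 38.3% observed, while with rilmenidine it was 66.3% against 29.2%. Aph1a, whose exons cover the last exon of Car14, had 3 to 28 counts.

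**Figure D3:**
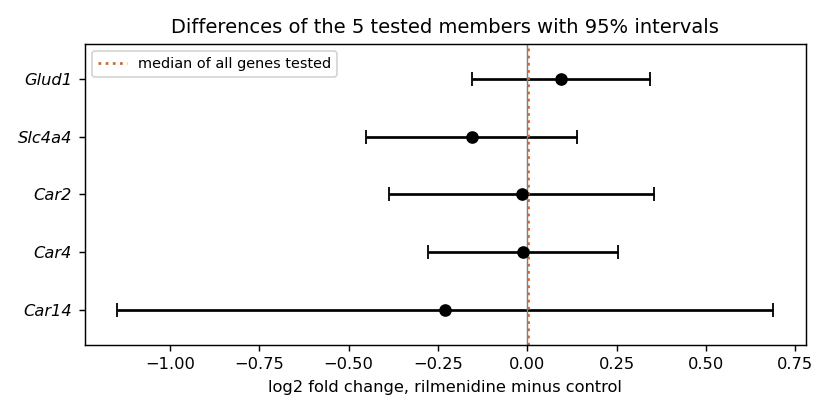
Log2 fold change, rilmenidine minus control, of the 5 tested genes (points) with 95% intervals from the edgeR quasi-likelihood fit (bars), and the median of all 10055 genes (dotted line). All 5 intervals include 0, and that of Car14 is the widest, from −1.15 to 0.69.

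Around the members, 6 lists of related genes were read in the same fit. They hold 72 genes beside the 7, of which 44 were tested, 21 above and 23 below 0, with a median log2 fold change of −0.0096. No gene passed an adjusted p-value of 0.05, and 1 of the 44 (2.27%) had an unadjusted p-value under 0.05, where the background was 10.6%. That gene was Sgk1, a kinase induced by aldosterone and glucocorticoids that regulates sodium transport and NHE3. It had 51.2 ± 14.2 normalized CPM (SD, n = 6) in control and 38.0 ± 5.69 (SD, n = 4) in rilmenidine kidneys, a log2 fold change of −0.44 (standard error 0.20, unadjusted p = 0.0436, adjusted p = 0.456 in edgeR). The ranges overlapped, 27.4 to 71.3 against 31.2 to 44.0.

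In the ammonia list 16 of 18 genes were tested, 10 above and 6 below 0, with a median log2 fold change of 0.088. Pck1, which carries the carbon of glutamine towards glucose and is induced in acidosis, had 1431 ± 303 and 1483 ± 334 (log2 fold change 0.052). Slc6a19, the apical transporter of neutral amino acids, had 607 ± 115 and 749 ± 324, the latter with 1218 in its highest kidney (log2 fold change 0.30, adjusted p-value 0.658 in edgeR). Rhcg, the ammonia channel of the distal nephron, had 50.7 ± 11.7 and 41.5 ± 15.3 (log2 fold change −0.32, adjusted p-value 0.645 in edgeR). Each of these pairs is mean ± SD with n = 6 and n = 4, and each difference was smaller than the spread between replicates of at least 1 group. Gls2, the liver-type glutaminase, had at most 1 count in every library.

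Of 16 carbonic anhydrase genes 8 were tested, 3 above and 5 below 0, with a median log2 fold change of −0.014. Car12, the membrane form of the distal nephron, was nearly as abundant in transcript ends as Car2, at 426 ± 113 (SD, n = 6) and 439 ± 87.0 (SD, n = 4) normalized CPM. Car15, known in the mouse brush border, had 0 counts in every library. Of 14 bicarbonate and chloride exchangers 5 were tested, with a median of −0.16, and of 9 sodium-proton exchangers 4, with a median of −0.0087. Slc4a1, the anion exchanger of type A intercalated cells, had 2 to 14 counts and was not tested. Of the 13 scaffolds and regulators 11 were tested, with a median of −0.042, and Slc9a3r1 had 138 ± 17.2 (SD, n = 6) and 137 ± 8.12 (SD, n = 4) normalized CPM. Of the 10 system A and N transporters, the family of Slc38a3, 5 were tested, with a median of −0.011, and the other system N gene, Slc38a5, had 0 counts. Atp6v1b1, the proton pump subunit of intercalated cells, had a log2 fold change of −0.23 (adjusted p-value 0.740 in edgeR).

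**Figure D4:**
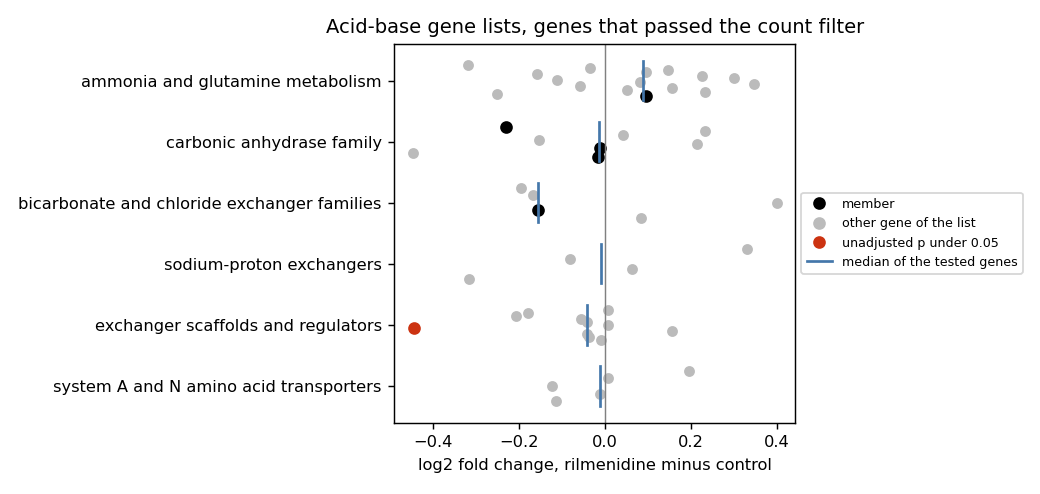
Log2 fold change, rilmenidine minus control, of every tested gene in 6 acid-base lists (points; members in black, unadjusted p-value under 0.05 in red) with the median of each list (vertical bars). The members lie among the other genes of their lists, and Sgk1 at −0.44 is the single gene with an unadjusted p-value under 0.05.

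Among markers of nephron segments, the 10 proximal tubule genes summed to 11078 to 13843 normalized CPM in control and 12444 to 14585 in rilmenidine kidneys, and 1 of 10, Miox, had an unadjusted p-value under 0.05 (log2 fold change 0.39, adjusted p-value 0.466 in edgeR). At that threshold 1 of 5 thick ascending limb genes and 2 of 6 principal cell genes were higher, and 3 of 5 distal convoluted tubule genes were lower. Of all genes tested 4.43% were higher and 6.13% lower at the same threshold. The higher ones were Umod, Aqp2 and Aqp3, with log2 fold changes of 0.61, 0.58 and 0.34 and adjusted p-values of 0.244, 0.229 and 0.442 in edgeR. The lower ones were Trpm6, Slc12a3 and Wnk1, with −1.01, −0.55 and −0.36 and adjusted p-values of 0.296, 0.313 and 0.391. Podocyte, endothelial and immune lists had 0 of 4, 0 of 6 and 0 of 5 at that threshold. Marker levels are not shares of cells, and the part of tubule segments in the members' values was not tested.

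**Figure D5:**
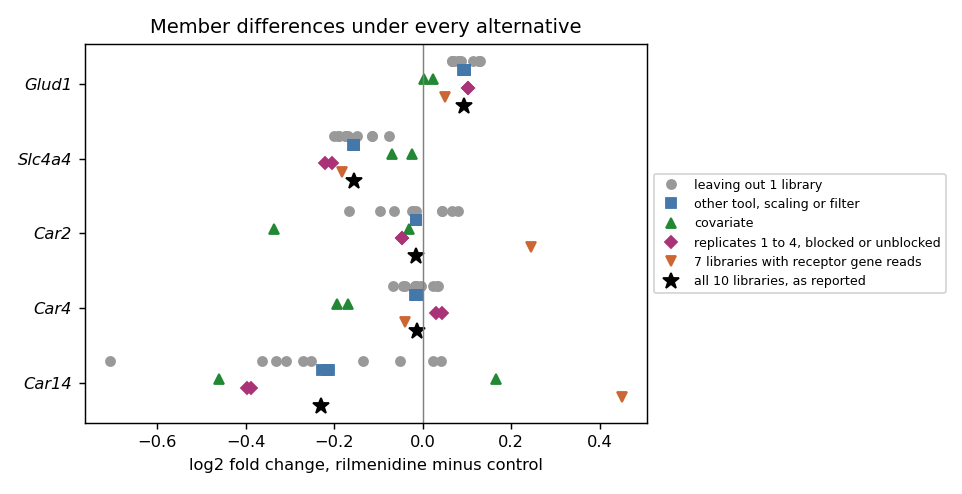
Log2 fold change, rilmenidine minus control, of the 5 tested genes under each alternative fit (symbols by kind of alternative; black star: all 10 libraries as reported). Glud1 stays above 0 and Slc4a4 below 0 throughout, while Car2, Car4 and Car14 lie on both sides of 0.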

How the data were processed

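RNA was sequenced from 10 kidneys. The authors trimmed reads with Trimmomatic 0.32, mapped them with STAR 2.5.2b, counted them per Ensembl gene with featureCounts 1.5 and deposited raw counts without normalization. The submitters' processing notes name mm10, and 42548 of 43629 rows were found in GENCODE M21 (GRCm38). The annotation release, strand setting and handling of molecular identifiers are not given in the sources used here. If duplicate reads were kept, counts overstate molecules. The supplementary methods give another number of control kidneys than the 6 analysed here.

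A gene was kept where 66.6% or more of the samples had 6 reads or more, as in the published filter. Counts were scaled by RLE and fitted in edgeR 4.0.16 (R 4.3.3) with group as the only term, using quasi-likelihood tests and Benjamini-Hochberg adjustment. Alternatives were DESeq2 1.42.0, the likelihood ratio test, TMM scaling, other count filters, covariates (log2 library size, log2 Malat1), a block by replicate number, and leaving out each kidney. The fits of Slc38a3 and the split by receptor gene reads were added after seeing the data. Log2 levels used a prior count of 2. The members and lists were chosen with earlier results of these data known. Named genes were the members, 7 fixed genes of the lists (1 is not reported here), every list gene with an unadjusted p-value under 0.05, markers where their list is described, and the 3 genes nearest in pattern to the member with the smallest p-value. Others singled out, among them Slc5a2, Car12 and Serpina1d, were chosen after their values were seen. The library totals limit the low genes, and the exact Poisson intervals cover counting error only. The intervals of the log2 fold changes come from the quasi-likelihood fit and include the spread between kidneys.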

Additional observations from a re-analysis of the deposited data

Results flagged for a closer look

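Among the 7 genes in 2 groups each, 14 groups were examined for a kidney far from the rest of its group, by a rule built to mark about 1 group in 20 by chance. Control 3 had 8.30 normalized CPM of Slc38a3, far above the other 5 controls. Rilmenidine 1 had 0.580 normalized CPM of Slc9a3, a single count where the other 3 treated kidneys had 0. Any single count in a group otherwise at 0 is marked, so that chance rate does not apply to it.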

How the results depend on the processing

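In every alternative 0 members passed an adjusted p-value of 0.05, and over 99 values of the 5 tested genes the smallest unadjusted p-value was 0.0781. The direction was kept in 85 of the 99 and turned in 14, all of them for Car2, Car4 and Car14, while Glud1 ran from 0.0030 to 0.13 and Slc4a4 from −0.22 to −0.024. The values nearest to 0, 0.0030 for Glud1 and −0.024 for Slc4a4, both came from the fit with log2 library size as a covariate. Car2 was 0.25 and Car14 0.45 within the 7 libraries with receptor gene reads, a split chosen after seeing the data, and Car14 was 0.17 with log2 library size as a covariate. With the replicate number as a block over replicates 1 to 4 of both groups, Car4 was 0.044, and it was 0.031 in those 8 libraries unblocked. Set against the unblocked fit of those 8 libraries, the block changed no direction and no call. Same-numbered kidneys did not deviate together (correlations of −0.077 to 0.077 over 4 pairs). Leaving out each kidney gave −0.17 to 0.079 for Car2, −0.068 to 0.035 for Car4 and −0.71 to 0.042 for Car14. The cause was not tested. Genes called among all tested were 0 as reported, with 1061 at an unadjusted p-value under 0.05, and 60 with DESeq2, 44 with the likelihood ratio test and 241 when only genes at 0 throughout were dropped. They were 0 to 37 when 1 kidney was left out (33 without control 2, 37 without control 6, 6 without rilmenidine 1). The difference in log2 library totals was 0.56 to 0.87. Slc38a3, in the fit of all genes not at 0 throughout, stayed above 0, from 0.77 to 1.61 without single kidneys. With at least 10 counts in every sample required, Car14 had no value.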

Other observations

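Serpina1d, a liver-type serpin gene with near-identical neighbours that may share its reads, had 24, 233, 1261 and 629 counts in rilmenidine kidneys 1 to 4, and Slc38a3 had 1, 13, 33 and 27. In both genes rilmenidine 1 was the lowest and rilmenidine 3 the highest of the treated kidneys. These are raw counts, and rilmenidine 1 had the smallest total of the treated libraries (1813465), while rilmenidine 3 and 4 had the largest (3042036 and 3232063). In controls 1 to 6 Serpina1d had 23, 24, 49, 67, 55 and 45 counts. Its highest control was control 4, and that of Slc38a3 was control 3 with 10 counts.

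Slc4a4 had the smallest p-value of the tested members. Over the 10 kidneys the genes nearest to it in centred log2 level were Nploc4, Anxa4 and Dhx15, with root mean square differences of 0.073, 0.092 and 0.097, where Slc4a4 itself had a spread of 0.19 around its mean. They were picked from all tested genes as the nearest, so this is a description without a test.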
